A study of Mus musculus with 40 samples.

Results

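The cervix libraries of mice given human chorionic gonadotropin (hCG) did not form 1 uniform group: in 5 of the 10, the interleukin 1 beta gene Il1b stood above 20 CPM (counts scaled to a common library total, as is usual in RNA-seq), and in the other 5 it did not. The 5 above, numbered 1, 2, 3, 4 and 6 in the labels, are called inflamed here, and the 5 at or below, numbered 5, 7, 9, 10 and R3, are called quiet. The libraries were chosen by the measured Il1b level (its count divided by the library's total count), so the difference in Il1b is not a result. Every other gene in this contrast is described without a test, because it comes from the libraries that were sorted. They belong to a series of 40 RNA-seq libraries from pregnant C57BL/6 mice, an inbred strain, killed at 18.5 days post coitum. Cervix and myometrium (the uterine muscle layer) were each sampled after an intraperitoneal injection of hCG, which binds the receptor of luteinizing hormone, or of saline buffered with phosphate (PBS), with 10 libraries per tissue and treatment. The labels name no genotype or transgene and give no dose, interval after injection or age of the dams. Whether libraries with different numbers come from different animals is not stated, so p-values measure only the spread between these libraries, which may be technical.

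IL-1β is an early cytokine of tissue inflammation, made mainly by neutrophils, monocytes and macrophages, and it induces chemokines that draw in more neutrophils. S100a8 and S100a9 encode the 2 chains of calprotectin, a calcium-binding protein abundant in the neutrophil cytosol and also made by inflamed squamous epithelium. Toward birth the cervix softens, and leukocytes, matrix-degrading enzymes and prostaglandins are studied as parts of that remodelling.

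The Il1b level was 64.7, 52.4, 40.5, 32.0 and 26.3 CPM in inflamed libraries 6, 4, 1, 2 and 3. It was 12.8 CPM in quiet library 7 and 3.33, 2.47, 2.11 and 0.861 CPM in quiet libraries 10, 5, 9 and R3. Library 3 at 26.3 CPM is therefore the one just inside the threshold and library 7 at 12.8 CPM the one just outside it. The 10 PBS cervix libraries ran from 1.08 to 2.62 CPM, so 4 of the 5 quiet libraries lay near that range and library 7 lay between the groups.

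**Figure D1:**
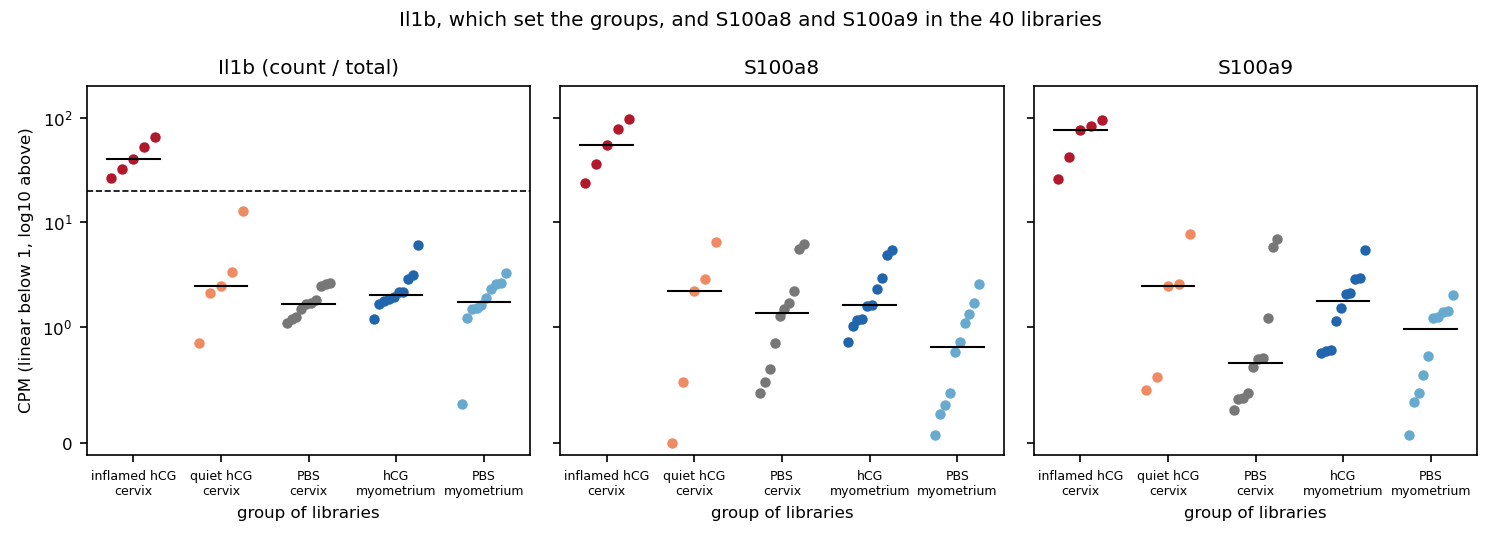
Il1b, as CPM of the total count, and S100a8 and S100a9, as CPM after TMM scaling (y axis, linear below 1 and logarithmic above), in each of the 40 libraries (points) by group (x axis), with the group median as a bar and the 20 CPM threshold dashed. The 5 inflamed libraries stand above all others for the 3 genes, including Il1b that defined them, and quiet library 7 is the highest of the quiet points.

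Library depth and tissue content differed with the state, and these facts bear on all that follows. The 5 inflamed libraries held 16613261 to 19165858 counts, quiet library 5 held 22274244, and the other 4 quiet libraries held 6613775 to 11602678. State and depth therefore cannot be told apart in the hCG cervix, except through library 5. That library stood apart from the cervix label: the urothelial gene Upk1b was at 1102 CPM (at most 262.8 in any other hCG cervix library), and the squamous keratin Krt13 at 1.47 CPM against 328 to 4602 in the other 9. Library 3 also held urothelial RNA, with Upk1b at 262.8 CPM and the fat gene Adipoq at 365 CPM, and library 1 held the skeletal muscle myosin Myh2 at 449 CPM. In bulk tissue, fewer cells of a type and less RNA per cell cannot be told apart. No 2 libraries of the same state agreed within sampling noise (smallest chi-square per gene 10.5 over 20 pairs).

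**Figure D2:**
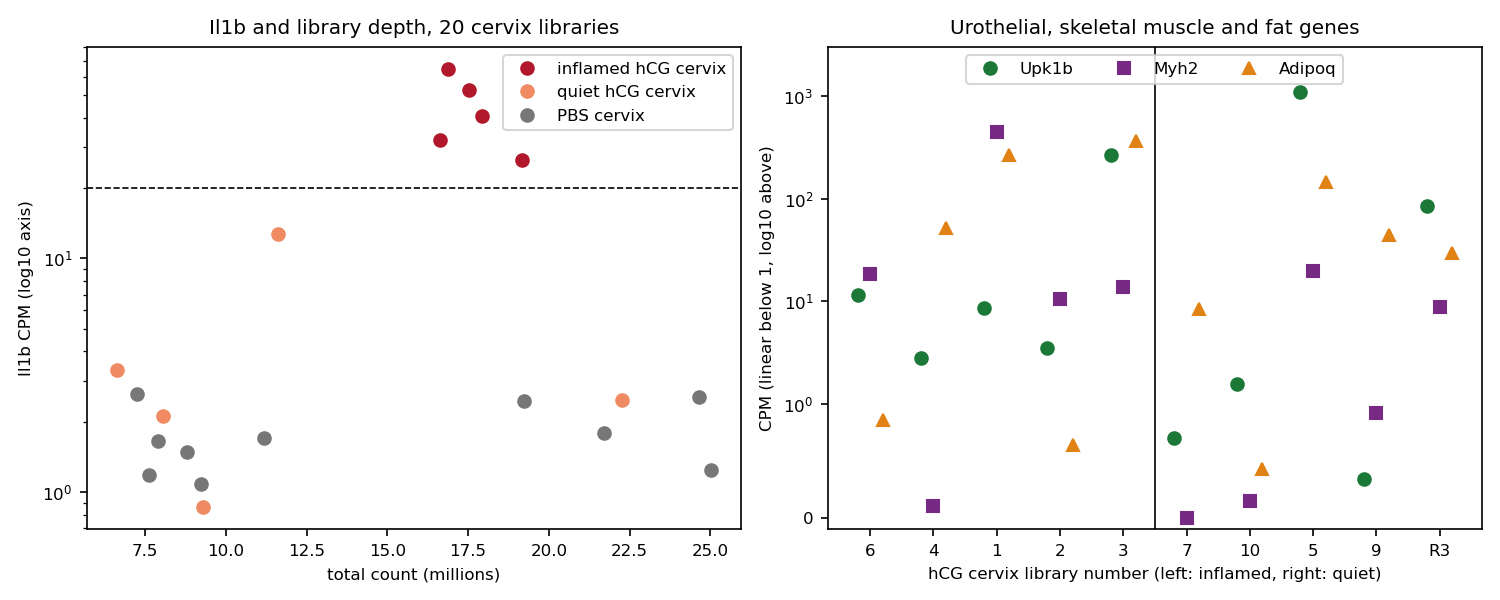
Left, total count (x) against Il1b CPM on a logarithmic axis (y) for the 20 cervix libraries, with the 20 CPM threshold dashed; right, CPM of the urothelial gene Upk1b, the skeletal muscle gene Myh2 and the fat gene Adipoq in the 10 hCG cervix libraries. The inflamed libraries are all deep, 4 PBS libraries are as deep with Il1b at 1.24 to 2.56 CPM, and library 5 carries the highest Upk1b at 1102 CPM.

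Of 15497 genes with enough counts, Il1b left out, 78 were at least 2-fold higher in the inflamed group with all 5 inflamed libraries above all 5 quiet ones, which is 0.503% of the genes. None was at least 2-fold lower without overlap (0%). Their fitted log2 differences reached 5.73 with a median of 1.98, where the median over all genes was -0.02. Of these 78 genes, 67 were protein coding and 11 of other types. Only 16 of them were shared when the Il1b threshold was 30 CPM, and 47 when it was 10 CPM. An arbitrary split of 5 against 5 libraries also separates some genes, and that share was not computed. Without the fold limit, 128 genes were higher (0.826%) and 29 were lower (0.187%). The 29 lower genes lay between -0.97 and -0.22, and the 12 largest at a mean of 5 CPM or more included Sema3b, a secreted guidance protein (-0.74), Anxa6, a membrane-binding annexin (-0.69), Stim1, a calcium sensor of the endoplasmic reticulum (-0.49), and Sptan1, the spectrin alpha chain of the membrane skeleton (-0.45). The other 8 were Klhl21 (-0.71), Wdr6 (-0.68), Zdhhc14 (-0.53), Agap1 (-0.50), Arhgap1 (-0.46), Nt5dc3 (-0.46), Atg4b (-0.41) and Pi4ka (-0.39).

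Among the 78 genes, library 6 was the highest for 41, library 1 for 14, library 4 for 13, library 2 for 6 and library 3 for 4. Quiet library 7, the one with intermediate Il1b, was the highest quiet library for 47. The PBS cervix libraries, which the rule did not use, give a reference point. The quiet median lay within the PBS range for 72 of the 78 genes, above it for 3 (Cxcr4, Vnn1 and Clec7a) and below it for 3 (Il1a, Gm14023 and Snord73a). For 40 of the 78 all 5 inflamed libraries exceeded all 10 PBS libraries. The shares of all 15497 genes with these positions were not computed. The 78 were chosen for high inflamed and low quiet values, which shapes these counts and the medians that follow. In a fit of the 3 groups, the median log2 difference of the 78 genes was -0.12 for quiet against PBS and 2.01 for inflamed against PBS.

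**Figure D3:**
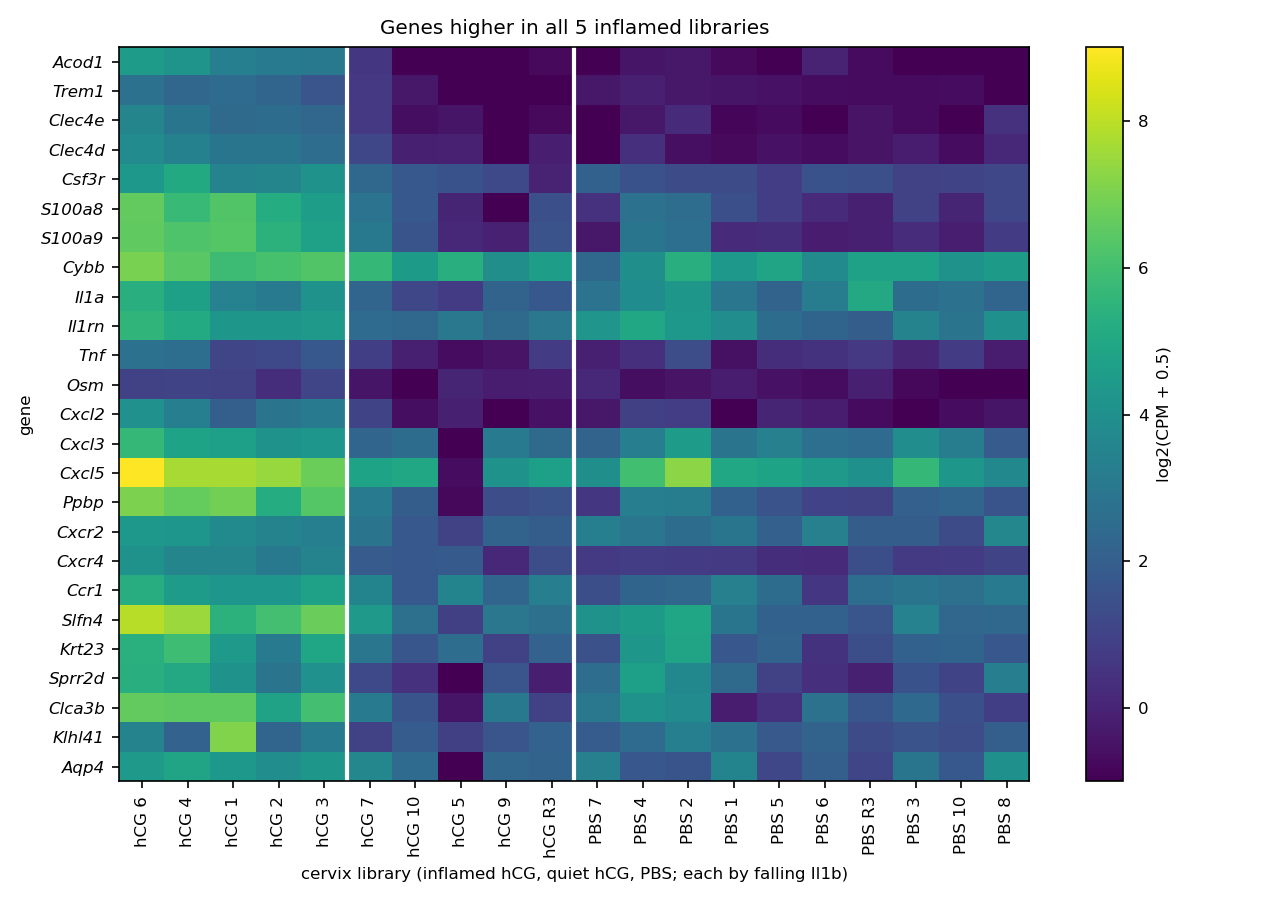
log2(CPM + 0.5) (colour) of 25 of the 78 genes (rows) in the 20 cervix libraries (columns), ordered as inflamed hCG, quiet hCG and PBS and by falling Il1b within each. The inflamed columns are brighter than the quiet ones in every row, as the choice of genes requires, while PBS libraries 2 and 4 reach inflamed levels for some genes, such as Krt23 (28.5 and 19.2 CPM against 8.18 CPM in inflamed library 2).

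Genes of neutrophils were the list with the largest share: of 17 listed markers 12 had enough counts, 7 of those were among the 78, and all 12 were higher in the inflamed group (median log2 1.93). Over all 15497 genes, 0.503% were among the 78 and 7426 were higher, which is the reference for this list and those below. Genes counted almost only in the inflamed group, such as Stfa2l1 (at most 0.0995 CPM in the quiet libraries), can pass the count filter through that group. S100a8 stood at 77.1, 36.0, 23.5, 54.2 and 96.6 CPM in inflamed libraries 1, 2, 3, 4 and 6. It stood at 0.531, 6.48, 0, 2.84 and 2.19 CPM in quiet libraries 5, 7, 9, 10 and R3, and between 0.43 and 6.20 CPM in PBS cervix. The groups were separated by a wide gap, with a log2 difference of 4.56, and libraries 6 and 1 were highest.

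S100a9 ran in parallel, with 83.1, 42.3, 26.0, 75.5 and 94.4 CPM in inflamed libraries 1, 2, 3, 4 and 6. Its quiet values were 0.571, 7.81, 0.458, 2.56 and 2.49 CPM in libraries 5, 7, 9, 10 and R3 (log2 difference 4.51). As with S100a8, the lowest inflamed library was 3 and the highest quiet library 7.

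Csf3r, the receptor for the neutrophil growth factor G-CSF, stood at 10.6, 11.2, 17.1, 33.4 and 19.6 CPM in inflamed libraries 1, 2, 3, 4 and 6 and at 0.498 to 4.53 CPM in the quiet ones. Its log2 difference was 2.92, and here library 4 was highest. Cxcr2, the receptor for the CXC chemokines described below, was at 9.63 to 19.7 CPM against 1.47 to 6.79 CPM (log2 1.95). Fpr2, a receptor for formylated bacterial peptides, and Trem1, a receptor that amplifies neutrophil activation, were lower in level but also separated, at 1.93 to 3.58 against 0.426 to 1.25 CPM and 2.64 to 6.26 against 0 to 1.09 CPM.

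The seventh, Stfa2l1, a stefin of neutrophils, had a log2 difference of 4.43, and its reads may be shared with a close relative. The granule genes Ngp, Camp, Mmp8 and Cd177 had too few counts for the fit. Ngp was at 29.5 CPM in inflamed library 1 and at 0, 0.377, 0 and 0 CPM in inflamed libraries 2, 3, 4 and 6, and Camp at 9.51 CPM in library 1 and at most 0.246 CPM in the other 4. Mmp8 was at 7.06, 0.754, 0, 1.13 and 1.48 CPM in inflamed libraries 1, 2, 3, 4 and 6 and at most 0.398 CPM in the quiet ones, and Cd177 at 0.377 to 3.35 against 0 to 1.03 CPM. Library 1 was the highest for all 4 of these genes, and Mmp8 was also above every quiet library in libraries 2, 4 and 6. Mmp9, a gelatinase, overlapped between the states (2.84 to 28.4 against 3.70 to 17.3 CPM). Ltf, lactoferrin, which glandular epithelium also makes, reached 1995 to 4670 CPM in the inflamed libraries and 0.245 to 3587 CPM in the quiet ones, and dominates any sum over the neutrophil list (2124 to 5096 CPM against 27.3 to 3835 CPM). The inflamed and quiet medians were 2945 and 2031 CPM for Ltf and 3441 and 2262 CPM for the sum, so the low quiet ends are not typical.

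Receptors of myeloid cells for microbial and damage signals were the second list: 8 of 22 with enough counts were among the 78, a ninth, the sialic acid receptor Cd33, separated the groups below 2-fold (log2 0.93, 7.42 to 10.98 against 2.63 to 6.61 CPM), and all 22 were higher (median log2 0.83). The C-type lectin receptors, which sense fungal and mycobacterial glycans, were prominent. Clec4e (Mincle) stood at 5.07, 5.39, 4.44, 6.85 and 11.3 CPM in inflamed libraries 1, 2, 3, 4 and 6 and at 0.245, 1.09, 0, 0.142 and 0.0995 CPM in quiet libraries 5, 7, 9, 10 and R3 (log2 4.25). The 5 inflamed values also exceeded every PBS cervix value (0 to 0.847 CPM).

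Clec4d, a lectin receptor that pairs with Mincle, was at 5.44 to 13.6 CPM against 0 to 1.72 CPM (log2 3.76). Clec7a (Dectin-1), the beta-glucan receptor, stood at 18.9 to 31.7 CPM against 4.08 to 15.5 CPM, with PBS cervix at 0.574 to 3.90 CPM. For Clec7a the quiet hCG libraries also lay above all PBS libraries, so its 3 groups were stepped, unlike those of Clec4e and Clec4d. Trem1, given above and on both lists, Cd300lf, Clec5a, Clec4n and the inhibitory receptor Lilrb4a completed the 8, the last at 27.3 to 44.5 against 5.38 to 20.3 CPM. The values of Lilrb4a and Lilr4b are uncertain, since reads of such close copies may have been split between them. Toll-like receptors 2 and 4 differed by log2 0.52 and 0.28 and overlapped between the states.

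Among genes of the interleukin 1 family other than Il1b, 2 ligands separated and the receptors did not. Il1a, the second IL-1 ligand, stood at 10.5, 8.12, 17.4, 25.02 and 39.3 CPM in inflamed libraries 1, 2, 3, 4 and 6 and at 1.22 to 4.29 CPM in the quiet ones (log2 2.82). Il1rn, the secreted antagonist of the IL-1 receptor, stood at 19.4, 19.4, 20.4, 34.8 and 45.9 CPM against 4.55 to 7.47 CPM (log2 2.22). For both genes PBS cervix spanned the gap, at 4.10 to 32.2 CPM and 3.34 to 31.6 CPM, so inflamed and PBS libraries overlapped. Gm14023, a long noncoding RNA among the 78, overlaps Il1a, and with the strand of counting not given their reads cannot be told apart.

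The signalling receptor Il1r1 was at 65.3 to 129 CPM in inflamed and 72.9 to 113 CPM in quiet libraries (log2 0.10), and the decoy receptor Il1r2 differed by log2 0.14. The 3 epithelial IL-36 ligands, held in the assembly table under older symbols, leaned the same way without separating. Il36a (Il1f6) differed by log2 3.44, at 1.91 to 12.3 against 0 to 2.19 CPM, so that only the lowest inflamed and the highest quiet values crossed. In all, 2 of 14 family members with enough counts were among the 78 and all 14 were higher (median 0.49).

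Few other cytokines were detectable. Tnf stood at 1.62, 1.80, 2.89, 5.62 and 6.14 CPM in inflamed libraries 1, 2, 3, 4 and 6 and at 0.122 to 1.33 CPM in the quiet ones (log2 2.44). Osm, oncostatin M, was at 0.754 to 1.63 against 0 to 0.531 CPM. These were 2 of 7 cytokines with enough counts, and the other 5 overlapped, among them Csf3, which encodes G-CSF (4.98 to 12.2 against 0.327 to 19.6 CPM). Il6 reached 3.47 CPM in 1 inflamed library and was at most 0.234 CPM in quiet ones, below the fit's filter. Il22 and Ifng had no count in any of the 10 libraries, where a count of 0 allows up to 3 counts, or 0.135 CPM at the greatest depth and 0.454 CPM at the lowest (counting error only).

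Chemokine genes differed in part. The 4 CXC ligand genes among the 78, all ligands of Cxcr2, lie in 1 cluster on chromosome 5 (GRCm38.p6). In order along the chromosome these are Cxcl5 (chr5:90759298-90761625), Ppbp (chr5:90768518-90770063), Cxcl3 (chr5:90786101-90788093) and Cxcl2 (chr5:90903899-90905938). The promoters of Cxcl2, Cxcl3 and Ppbp are shown because these neighbours were all higher in the inflamed libraries, and those of S100a8 and S100a9, a neighbouring pair on chromosome 3, for the same reason. Each is the 250 bases before the annotated start in RefSeq (GRCm38.p6), 5′ to 3′ on the gene's strand, with capitals marking matches to the patterns named after them.
Cxcl2 (chr5:90903649-90903898, + strand): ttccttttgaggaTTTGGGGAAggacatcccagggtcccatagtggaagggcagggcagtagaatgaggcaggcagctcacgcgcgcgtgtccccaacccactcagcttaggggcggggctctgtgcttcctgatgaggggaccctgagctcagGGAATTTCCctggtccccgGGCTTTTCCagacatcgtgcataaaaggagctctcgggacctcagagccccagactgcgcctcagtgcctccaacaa
Cxcl3 (chr5:90785851-90786100, + strand): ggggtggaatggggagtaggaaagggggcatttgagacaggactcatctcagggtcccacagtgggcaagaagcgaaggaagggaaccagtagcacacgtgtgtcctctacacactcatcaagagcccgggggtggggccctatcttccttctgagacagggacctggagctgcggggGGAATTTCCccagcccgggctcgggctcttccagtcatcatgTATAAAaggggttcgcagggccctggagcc
Ppbp (chr5:90768268-90768517, + strand): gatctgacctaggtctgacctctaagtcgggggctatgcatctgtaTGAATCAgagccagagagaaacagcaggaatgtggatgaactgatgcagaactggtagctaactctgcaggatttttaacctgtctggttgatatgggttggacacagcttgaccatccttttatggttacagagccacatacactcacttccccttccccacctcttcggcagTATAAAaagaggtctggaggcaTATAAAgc
S100a8 (chr3:90668821-90669070, + strand): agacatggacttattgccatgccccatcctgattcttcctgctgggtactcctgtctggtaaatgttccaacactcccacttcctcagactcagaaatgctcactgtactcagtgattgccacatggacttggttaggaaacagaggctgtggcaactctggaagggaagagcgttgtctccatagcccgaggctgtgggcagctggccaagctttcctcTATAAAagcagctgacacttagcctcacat
S100a9 (chr3:90695722-90695971, - strand): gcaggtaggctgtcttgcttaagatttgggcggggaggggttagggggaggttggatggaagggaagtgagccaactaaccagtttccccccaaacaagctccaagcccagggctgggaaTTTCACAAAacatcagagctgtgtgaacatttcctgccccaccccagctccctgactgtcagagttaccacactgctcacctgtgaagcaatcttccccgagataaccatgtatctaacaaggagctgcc

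Patterns were searched on both strands, and related spellings had been looked at before these were settled, so the shares are descriptions only. The NF-kB type pattern GGNNTTNCC begins 96 and 77 bases before the start of Cxcl2 and 72 before that of Cxcl3. It was found in 12 of the 60 genes of the 78 with a promoter sequence (20%) and in 15.3% of all 27025 genes with one. TATAAA lies 30 bases before the start of Cxcl3, Ppbp and S100a8, and was in 19 of 60 (31.7%) against 14.3% of all. The C/EBP type pattern TTNCNNNAA, found in Cxcl2 and S100a9, was in 28 of 60 (46.7%) against 36.2%, and the AP-1 type pattern TGANTCA, found in Ppbp, in 8 of 60 (13.3%) against 7.82%. The interferon type pattern TTCNNTTTC was in 3 of 60 (5.0%) against 8.18%, and the PU.1 type AGAGGAAGT in 0 of 60 against 0.94%. Matches of different patterns may overlap and are not evidence of binding.

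Cxcl5 was the most abundant of the 4 ligands, at 206, 176, 109, 211 and 517 CPM in inflamed libraries 1, 2, 3, 4 and 6 and at 0.122, 27.6, 16.9, 31.4 and 24.98 CPM in quiet libraries 5, 7, 9, 10 and R3 (log2 3.58). Library 5, with urothelial RNA, was far below the other quiet libraries. PBS cervix ran from 12.2 to 155 CPM and so overlapped the inflamed range. Ppbp, which encodes the platelet and leukocyte chemokine precursor of CXCL7, stood at 117, 35.9, 81.7, 101 and 130 CPM in inflamed libraries 1, 2, 3, 4 and 6 and at 0.0816 to 8.12 CPM in the quiet ones (log2 4.85). Its groups did not come near each other, and PBS cervix reached only 9.25 CPM. The platelet gene Pf4, which lies between Ppbp and Cxcl3, was at 8.08 to 23.5 CPM against 10.1 to 16.6 CPM (log2 0.05), and the platelet integrin gene Itga2b differed by log2 0.02, so these platelet markers overlapped between the states.

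Cxcl2 was at 3.61 to 16.3 CPM against 0 to 1.56 CPM (log2 4.13) and Cxcl3 at 17.0 to 50.3 CPM against 0 to 8.13 CPM (log2 2.61). PBS cervix reached 21.8 CPM for Cxcl3, within its inflamed range, and 1.36 CPM for Cxcl2, below its inflamed range. In the same cluster, Cxcl1 differed by log2 1.53 but overlapped, staying below 2 CPM in every library, and Cxcl15 differed by log2 -0.14. The cluster was therefore uneven, with 4 of the 7 genes given here separated. Chemokine receptors Cxcr4 (7.77 to 16.6 against 0.572 to 3.20 CPM) and Ccr1 (18.6 to 36.8 against 2.84 to 11.1 CPM) separated as well. With Cxcr2 they make 6 of the 32 measured genes on the chemokine list, which does not hold Ppbp (median log2 0.47). Monocyte chemokine Ccl2 (log2 0.30), its receptor Ccr2 (0.67) and the interferon-induced Cxcl10 (0.20) overlapped. Larger differences outside the cluster, also with overlap, were those of Ccl4 (log2 2.68, 0.460 to 3.69 against 0 to 0.937 CPM), Ccl3 (2.66, 1.34 to 6.37 against 0.0995 to 1.56 CPM) and Cxcl13 (1.99).

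With this cluster counted, 19 of the 78 lie in 8 groups of neighbours with gaps of at most 250 kb. The share for all genes was not computed, so whether this is many is not known. The groups besides the cluster are S100a8 with S100a9, Clec4n with Clec4d and Clec4e, Slfn1 with Slfn4, Stfa2l1 with Cstdc4, Sirpb1b with Sirpb1c, Lilr4b with Lilrb4a and the overlapping Gm14023 with Il1a. Slfn1 with Slfn4, Stfa2l1 with Cstdc4 and the 2 Sirpb1 genes are, like the Lilr pair, close relatives whose reads may have been split.

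The gene with the largest log2 difference was Acod1, the mitochondrial enzyme of activated myeloid cells that makes itaconate. It stood at 9.51, 7.94, 7.70, 17.5 and 22.1 CPM in inflamed libraries 1, 2, 3, 4 and 6 and at 0, 1.01, 0, 0 and 0.0995 CPM in quiet libraries 5, 7, 9, 10 and R3. With so few quiet counts, its log2 of 5.73 is loosely fixed, but no PBS cervix library passed 0.508 CPM either. Slfn4, a schlafen family gene of myeloid cells, stood at 43.2, 63.7, 104, 183 and 242 CPM against 1.35 to 21.2 CPM (log2 3.92), and Slfn1 at 3.71 to 16.3 against 0.229 to 2.34 CPM. Cybb, the catalytic subunit of the phagocyte NADPH oxidase, stood at 57.9, 68.2, 77.4, 86.1 and 128 CPM against 14.8 to 50.6 CPM (log2 1.46), above all PBS libraries as well.

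The list of NF-kB targets and inflammasome genes held 4 genes that separated, of which 2 are inflammasome sensors. Nlrp3 was at 2.61 to 4.19 against 1.28 to 2.04 CPM (log2 1.11), and Mefv, which encodes pyrin, at 2.09 to 5.02 against 0.0995 to 0.937 CPM (log2 2.55). They were the 2 of its 23 genes among the 78, and the sensor Aim2 overlapped (3.35 to 7.70 against 1.28 to 5.72 CPM). Tnfaip3, which encodes the NF-kB inhibitor A20 (log2 0.74), and Birc3 (0.67) separated below 2-fold. The list's median was 0.04, near that of all genes, with Nfkbia at -0.03, Icam1 at 0.04 and the adaptor Pycard at -0.03. Casp1, which cleaves pro-IL-1β, was at 23.8 to 66.9 against 7.06 to 44.7 CPM and overlapped.

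Markers of macrophages overlapped between the states: 0 of 18 with enough counts were among the 78, with a median log2 of 0.28, and their summed level was 862 to 1787 CPM against 714 to 1150 CPM. Adgre1, which encodes F4/80, differed by log2 0.20, the colony-stimulating factor receptor Csf1r by -0.20 and Cd68 by 0.04. Of the 18, 14 were higher and 4 lower. The largest differences were those of Chil3 (log2 2.62, 1.99 to 14.5 against 0.204 to 2.19 CPM) and Spp1 (2.20, 5.97 to 219 against 1.55 to 46.1 CPM), both with overlap. The dendritic list (0 of 7, median 0.24) and the lymphoid list (0 of 7, median 0.17) held none either. Of 26 interferon response genes 22 were higher (median log2 0.44), among them Oas2 (1.498), Ifi44 (1.27), Oasl2 (1.23) and Irf7 (1.20), each with overlap. Only Ifi27l2a was among the 78, at 40.8 to 121 against 13.97 to 29.1 CPM.

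Of 13 antimicrobial and acute phase genes with enough counts, Cybb and Chil1 were among the 78. Lcn2, lipocalin 2, differed by log2 2.40 but was spread from 14.6 to 342 CPM in the inflamed libraries and from 2.82 to 53.9 CPM in the quiet ones. Matrix genes of cervical remodelling held none of 26 (median 0.10). Mmp13 had a log2 of 4.85, yet its median was 1.22 CPM in the inflamed and 0.597 CPM in the quiet libraries, with 91.6 CPM in the highest, so that value rests on 1 library. Prostaglandin genes held 0 of 11, with Ptgs2, the inducible cyclooxygenase, at 5.86 to 30.1 against 2.27 to 74.0 CPM. The complement (0 of 11) and cholesterol synthesis (0 of 22, median -0.31) lists held none.

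**Figure D4:**
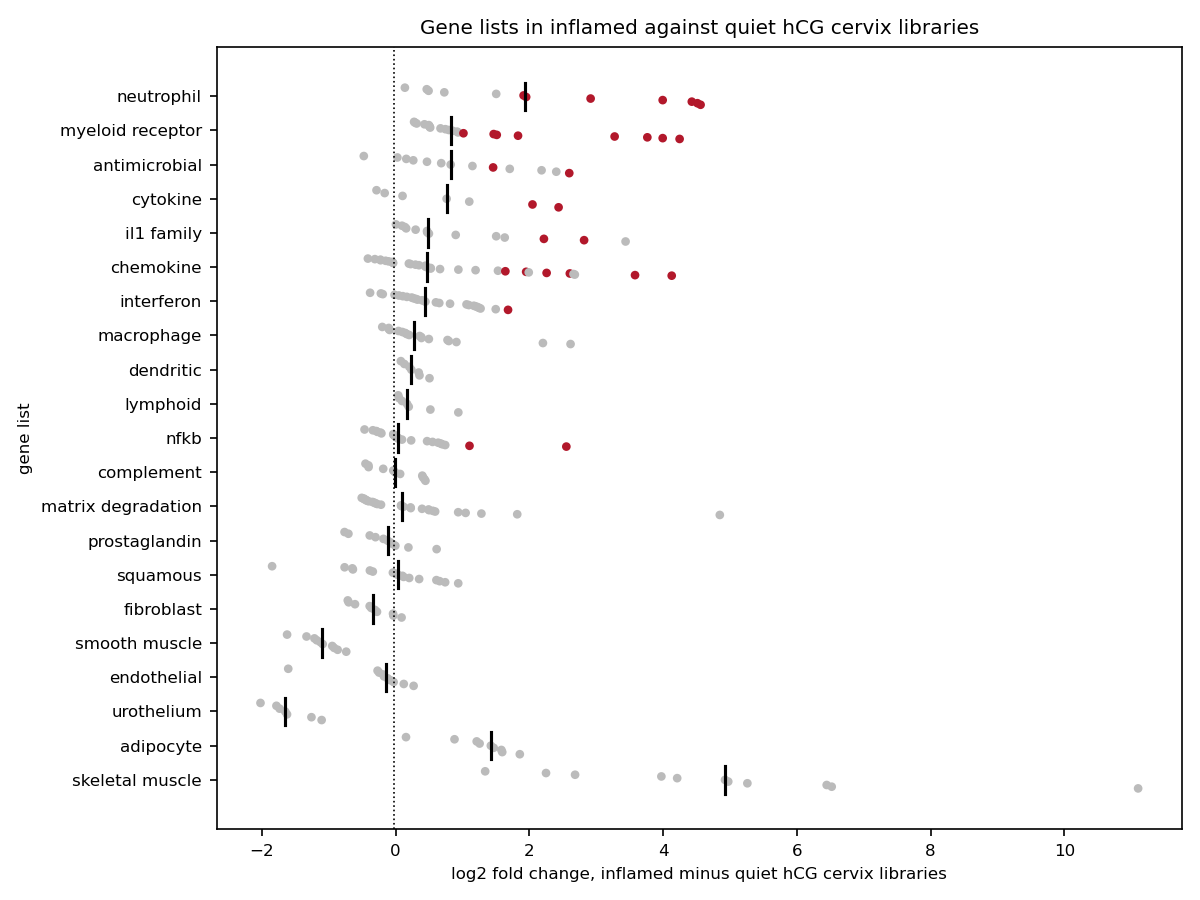
log2 difference between inflamed and quiet hCG cervix libraries (x axis) of each gene with enough counts in 21 gene lists (rows), with genes among the 78 in red, other genes in grey, list medians as bars and the median of all genes dotted. Neutrophil genes (median 1.93) and myeloid receptors (0.83) are shifted right with red points, while skeletal muscle (4.93) and fat (1.43) are also shifted right and hold no red points. The summed skeletal muscle level was 6994 CPM in library 1, against a median of 182 CPM over the inflamed libraries.

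Epithelial genes made up a further part of the 78. Krt23, an inducible epithelial keratin, stood at 20.8, 8.18, 29.8, 59.5 and 40.1 CPM in inflamed libraries 1, 2, 3, 4 and 6 and at 1.49 to 7.10 CPM in the quiet ones (log2 2.90). Sprr2d, a small proline-rich protein of cornified cells, was at 6.73 to 38.4 against 0 to 2.63 CPM (log2 4.34), and Clca3b, of the chloride channel accessory family, at 26.6 to 97.4 against 0.245 to 7.96 CPM (log2 4.23). PBS cervix overlapped the inflamed range for Krt23 (0.889 to 28.5 CPM) and Sprr2d (0.430 to 24.5 CPM) but not for Clca3b (0.376 to 16.9 CPM). Quiet libraries lay below PBS by log2 -2.51 for Sprr2d. Genes of squamous epithelium as a list did not shift (0 of 17, median 0.03), although their summed level varied widely in both states, from 2236 to 19426 CPM and from 2120 to 19813 CPM.

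Markers of other tissues also differed in level between the states, with overlap for every marker on these lists, and their part in the values above was not tested. The 11 skeletal muscle markers were all higher in the fit (median log2 4.93, summed level 57.1 to 6994 against 32.6 to 343 CPM), with the maximum in library 1. The group medians of that sum were 182 and 56.9 CPM, so the size of the fitted values leans on library 1. By medians Actn3 was lower (1.13 against 1.56 CPM) and the rest higher. The 9 fat markers were also all higher in the fit (median 1.43, 36.2 to 3391 against 56.4 to 1614 CPM). By medians Lep was lower (1.23 against 1.59 CPM) and the rest higher. The 7 urothelial markers were all lower in the fit (median -1.65, 16.2 to 658 against 16.8 to 2349 CPM). By group medians, however, Upk1b (8.63 against 1.56 CPM) and Krt20 (7.85 against 6.27 CPM) were higher in the inflamed libraries and the rest lower. The quiet maximum of Upk1b, 1102 CPM, was that of library 5. The 10 smooth muscle markers were all lower as well (median -1.11, 1143 to 8623 against 6237 to 26393 CPM). Klhl41, a gene of the skeletal muscle sarcomere among the 78, stood at 139 CPM in library 1 but also at 4.29, 8.20, 3.94 and 10.5 CPM in libraries 2, 3, 4 and 6, against 1.39 to 3.88 CPM in the quiet libraries. Abra and Asb11, also muscle genes, had library 1 as their highest, at 20.5 and 14.6 CPM.

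Libraries 1, 3 and 5, which hold the RNA of other tissues given above, were also left out together. The libraries kept were not free of other tissues. Quiet library 9 held the intestinal gene Lgals4 at 116.9 CPM and the trophoblast gene Tpbpa at 32.9 CPM. Of the 78 genes, 75 then had enough counts, and 69 kept at least a 2-fold difference. That they do not overlap is fixed by how they were chosen, and the 2-fold limit of that choice favours a kept difference. S100a8 then differed by log2 4.36, S100a9 by 4.33 and Acod1 by 5.51, against 4.56, 4.51 and 5.73 with all libraries. These values describe the sorted libraries, and the part of other tissues in them was not tested. The muscle genes did not hold their size: Klhl41 went from log2 3.72 to 1.12, Abra from 3.62 to 1.40 and Asb11 from 3.43 to 2.73. In total 126 genes were higher and 39 lower under that choice, with fewer libraries to separate.

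By the pattern over the 10 hCG cervix libraries, the genes most like Il1b were Trem1 (Pearson correlation of log2 CPM 0.986), Mcemp1 (0.977), Clec4e (0.974), Trim30b (0.972) and Clec4d (0.968). These are descriptions over 10 libraries that share the split in depth. Apart from Trim30b, of the tripartite motif family, they are membrane proteins of myeloid cells.

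The remaining members included further genes of leukocytes: Plek, pleckstrin (44.8 to 81.5 against 10.8 to 35.5 CPM), Fgr, a Src family kinase (2.78 to 6.16 against 0.896 to 2.33 CPM), and Ptpn22, a phosphatase (6.96 to 15.3 against 2.61 to 5.95 CPM). Vnn1, vanin 1, was at 8.83 to 34.3 against 2.17 to 7.81 CPM, and Tnip3, an A20-binding protein, at 9.84 to 23.9 against 1.31 to 5.31 CPM. Others were at low levels with no link to inflammation known from the lists, such as Sycp2, a meiotic chromosome protein, Tyr, tyrosinase, and Cryba1, a lens crystallin, all with every value below 6 CPM. In all, 29 of the 78 averaged at least 5 CPM over the 10 hCG cervix libraries, and 29 were on a list.

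Whether the same genes move with Il1b where the rule was not applied was tested next. In PBS cervix, where Il1b ran only from 1.18 to 2.96 CPM after TMM scaling, edgeR's quasi-likelihood test of a slope on log2 Il1b called no gene of 14811 at an adjusted p under 0.05 (0%, lowest adjusted p 0.465), 1463 having an unadjusted p under 0.05. DESeq2 called 24. Of the 55 members with enough counts there, 33 (60%) had a positive slope, against 54.4% of all genes, and 11 had an unadjusted p under 0.05 with a positive slope, beside 4.79% of all genes. S100a9 had a slope of log2 2.52 per doubling of Il1b (SE 0.705, unadjusted p 0.00355, adjusted p 0.465), S100a8 one of 1.84 (SE 0.587) and Krt23 one of 2.19 (SE 0.65). None of these passed adjustment.

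Depth differed among these PBS libraries too. When log2 library size was added to the fit, 5 of 63 members had an unadjusted p under 0.05 with a positive slope, beside 6.57% of all genes, and 4 with a negative one (Ccr1, Lilrb4a, Plek and Gpr141). S100a9 (slope 1.68, unadjusted p 0.0827 by edgeR), S100a8 (1.18, unadjusted p 0.0545) and Krt23 (1.49, unadjusted p 0.0885) were then no longer under 0.05. A comparison of the 4 deeper PBS cervix libraries (19222843 to 25028360 counts) against the 6 shallower ones, added after the depths had been seen, gave no call by edgeR among 14549 genes (0%, lowest adjusted p 0.215), 2633 genes at an unadjusted p under 0.05 and 309 calls by DESeq2. Of 48 members with enough counts, 27 (56.2%) were positive, against 48.4% of all genes, and 9 were higher at an unadjusted p under 0.05, beside 9.48% of all genes: Cxcl5, S100a8, Krt23, Ppbp, Cxcl3, Xlr4a, Slfn4, Klhl41 and Sprr2d.

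In that comparison Cxcl5 was at 31.7, 155, 49.8 and 63.4 CPM in deeper PBS libraries 1, 2, 3 and 4 and at 12.2 to 27.2 CPM in the 6 shallower ones (log2 1.97, SE 0.382, adjusted p 0.215 by edgeR). The 2 sets did not overlap for Cxcl5. S100a8 was at 2.21, 5.53, 1.48 and 6.20 CPM in the deeper and 0.430 to 1.69 CPM in the shallower libraries (log2 2.02, SE 0.496), so PBS libraries 2 and 4 were its high ones. Trem1, Clec4e and Acod1 were below 0.85 CPM in every PBS cervix library and had too few counts for this comparison, which therefore says nothing about them. The part of depth in the hCG contrast was not tested beyond this, since the hCG cervix offers only library 5 for it.

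**Figure D5:**
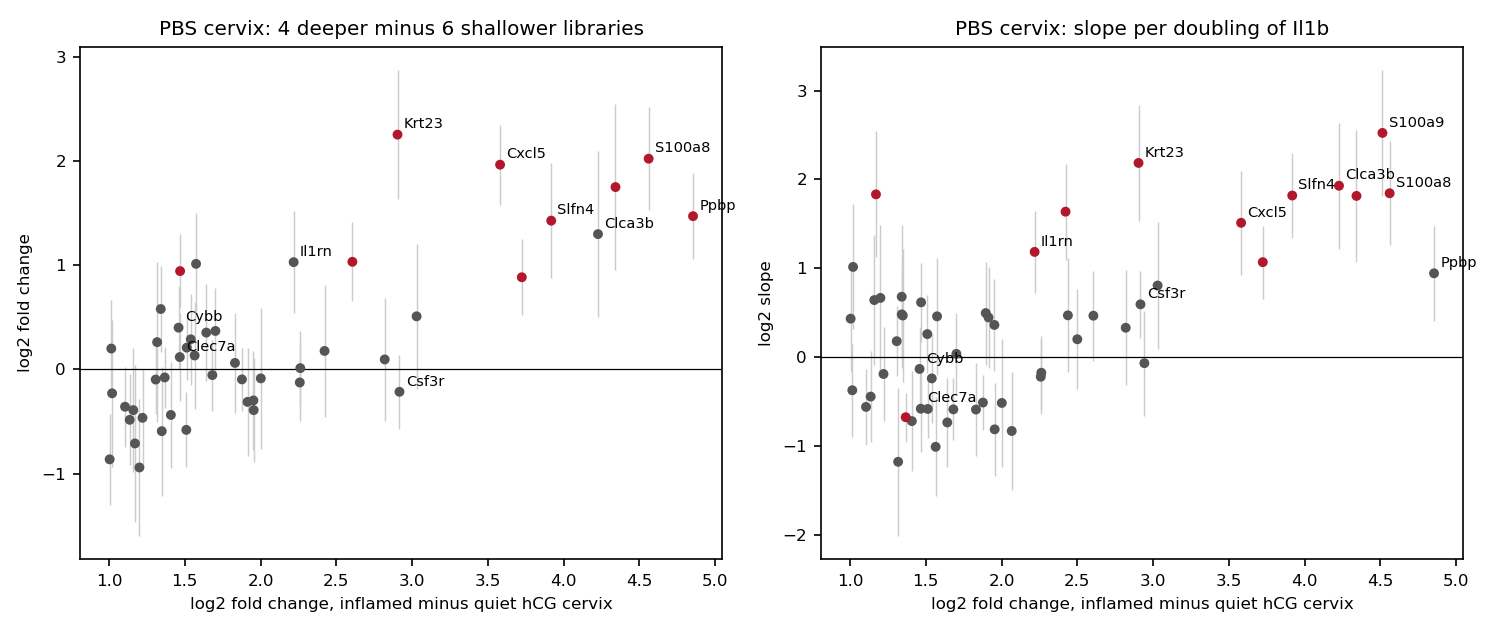
Members' log2 difference between inflamed and quiet hCG cervix (x axes) against their log2 difference between deeper and shallower PBS cervix libraries (left y axis, 48 genes) and against their log2 slope per doubling of Il1b in PBS cervix (right y axis, 55 genes), with SE bars and red for an unadjusted p under 0.05. S100a8, Krt23, Cxcl5 and Slfn4 are high in both panels, Cybb lies at 0.40 and -0.13, and no point passed adjustment.

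In myometrium of hCG mice, 9 libraries share a number with a cervix library, 5 with an inflamed and 4 with a quiet one. The labels do not say that a shared number marks the same animal, and the comparison by cervix state has a meaning only if it does. The mean log2 CPM of Il1b was 1.55 ± 0.73 (SD, n = 5) and 1.17 ± 0.34 (SD, n = 4), a difference of 0.38 (exact two-sided permutation test, p = 0.413, 126 arrangements, smallest p 0.00794). S100a8 differed by 0.57 (exact permutation p = 0.341) and S100a9 by 0.51 (exact permutation p = 0.484). Each was 0.484 after adjustment over the 3 genes. No difference larger than the spread between libraries was found for these markers.

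Across all genes, the myometrium of inflamed-numbered against quiet-numbered libraries gave 0 calls by edgeR among 14919 genes (0%, lowest adjusted p 0.713), 907 at an unadjusted p under 0.05 and 57 calls by DESeq2. Without hCG myometrium library 9, edgeR called 113. Of 58 members with enough counts, 37 (63.8%) were positive, against 51.7% of all genes. Only Sirpb1b was higher at an unadjusted p under 0.05, beside 1.84% of all genes, and 6 were lower: Cxcr2, Vnn1, Chil1, Trim15, Xlr4a and Ankrd33b. Cxcr2 had a log2 difference of -3.24 (SE 0.76, adjusted p 0.713 by edgeR), opposite in sign to the cervix contrast.

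Slopes on Il1b within each myometrium group gave the same count of 0 by edgeR (0% of 15527 genes for hCG and of 15436 for PBS). For hCG myometrium, 397 genes had an unadjusted p under 0.05 and DESeq2 called 18. There, 41 of 67 members (61.2%) were positive, against 50.1% of all genes, and Acod1, Tnip3 and Sirpb1b were higher at an unadjusted p under 0.05, beside 1.19% of all genes. For PBS myometrium, 610 genes had an unadjusted p under 0.05 and DESeq2 called 19. Members were positive in 45 of 68 cases (66.2%), against 53.1% of all genes, with Csf3r and Sirpb1b higher at an unadjusted p under 0.05, beside 2% of all genes. Il1b never passed 6.39 CPM in these 20 libraries, so none of them reached the level that defined the inflamed cervix.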

How the data were processed

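The deposited table, made by the authors, gives unnormalized read counts for each gene (23079 numeric gene identifiers, 40 libraries, totals 5449239 to 25028360). TopHat2 and the GRCm38 (mm10) build are named in the submitters' processing notes. For the counting tool, annotation and strand setting the entry is: not given in the sources used here. A RefSeq table of GRCm38.p6 named 23008 identifiers; the 71 others held 0.197% of counts.

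The threshold on Il1b used CPM computed as count over total. Other levels are CPM after TMM scaling over 40 libraries. Fold changes came from edgeR 4.0.16 (filterByExpr, TMM, robust quasi-likelihood fit) in R 4.3.3, with Benjamini-Hochberg adjustment and a threshold of 0.05. DESeq2 1.42.0, other scalings, filters and thresholds, and each library left out were alternatives. Permutation tests used log2 CPM with a prior count of 2. The fit was tested on simulated data.

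The members and the 30 gene lists (428 genes, 4 not matched) were chosen with earlier results of these data known. Genes named are the 12 highest and 12 lowest non-overlapping genes at a mean of at least 5 CPM, without predicted gene models, up to 5 per list, the 5 most like Il1b, and the 10 smallest p of each tested comparison, of which only members are named. Other genes were chosen for naming after their values were seen.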

Additional observations from a re-analysis of the deposited data

Results flagged for a closer look

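Klhl41 was at 139 CPM in hCG cervix library 1, while the median of the other 9 hCG cervix libraries was 3.88 CPM: that library lay far from the others. The skeletal muscle genes Myh2 (449 CPM) and Myh4 (1869 CPM) were also highest in library 1, and their part in the Klhl41 value was not tested.

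Cxcl5 was at 0.122 CPM in hCG cervix library 5, at 16.9 to 31.4 CPM in the other quiet libraries and at a median of 109 CPM in all other 9. That set library 5 apart on the low side. The same library held Upk1b at 1102 CPM, Krt13 at 1.47 CPM and the progesterone receptor gene Pgr at 7.47 CPM, and their part in the Cxcl5 value was not tested. About 1 in 20 such groups is expected to hold a library this far out.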

How the results depend on the processing

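The count of 78 higher and 0 lower genes was 77 and 0 with RLE factors, upper-quartile factors and DESeq2 fold changes, 80 and 0 with column totals, and 79 and 0 with at least 1 CPM in 3 libraries. It moved to 153 higher and 27 lower at an Il1b threshold of 10 CPM (47 of the 78 genes shared), to 69 and 21 at 30 CPM (16 shared), to 100 and 1 with no filter, to 2152 and 1522 with only the 6 deepest libraries, where library 5 stood alone as quiet, and to 126 and 39 without libraries 1, 3 and 5. Leaving out each library in turn gave 86 to 176 higher and 0 to 21 lower genes, the most without library 7 (176 and 21) and library 3 (132 and 20), and kept 73 to 77 of the 78. Of the 12 higher and 12 lower genes named by rule, none reversed under these settings, but 14 of the 24 moved by more than their spread with only the deepest libraries and 9 at the 30 CPM threshold.

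The 0 calls by edgeR became 57 (hCG myometrium by cervix state), 24 (PBS cervix slope), 18 (hCG myometrium slope), 19 (PBS myometrium slope) and 309 (deeper against shallower PBS cervix) with DESeq2. With no filter the PBS myometrium slope called 2. Leaving out each library in turn gave 0 to 113 calls for hCG myometrium by cervix state (113 without library 9) and 0 to 0 for the other 4. The causes were not tested. No paired analysis was possible because the inflamed and quiet libraries share no number and their contrast comes from no test. Depth limits genes under 0.454 CPM in the shallowest library.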
